A study of Mus musculus with 32 samples.

Results

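Drosha, Dgcr8, Dicer1, Tarbp2 and the Argonautes Ago1, Ago2, Ago3 and Ago4 make up the core machinery that produces and uses small silencing RNAs. These 8 genes were taken by name from the 46078 genes listed in each of the total RNA and polyA expression tables of mouse embryos, and all 8 were found in both. RNA had been sequenced in embryos at a late 1-cell stage, 12 hours after fertilization (hpf), and a late 2-cell stage, 28 hpf, an interval in which mouse embryos clear maternal RNA and start transcription of their own genome. The study compared embryos with and without Dppa2 or Dppa4, nuclear proteins of the early embryo and germ line.

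Groups are named by the maternal (m) and zygotic (z) allele. In total RNA there were 16 libraries in 8 groups of 2: m+z+ controls and m-z+ embryos, labelled as without the maternal and with the zygotic allele, at 1-cell and 2-cell stages, once for Dppa2 (B6/DBA mixed background) and once for Dppa4 (B6). In polyA RNA there were 16 libraries in 6 groups: WT 1-cell and WT 2-cell embryos (B6, 2 libraries each), and 2-cell m-z+ and m-z- embryos of each gene (3 libraries each, on the background of their arm). The labels describe the polyA libraries as single embryos. They do not say how many embryos entered a total RNA library or whether replicates came from separate matings. P-values set a difference only against the spread of libraries within groups, pooled over the groups of a library type. Part of that spread can be technical. The labels do not describe how the alleles were made.

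Most microRNAs begin as hairpins in long nuclear transcripts. Drosha and its RNA-binding partner Dgcr8, together called the Microprocessor, cut the hairpin out. In the cytoplasm Dicer1, helped by the dsRNA-binding protein Tarbp2, trims hairpins to mature microRNAs and also cuts long dsRNA into small interfering RNAs. Argonaute proteins hold the small RNA and silence matching transcripts, and Ago2 is the Argonaute known for cutting its target. Mouse oocytes are known for abundant Dicer1-made small interfering RNAs and for weak microRNA activity.

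Values are FPKM, fragments scaled by transcript length and by the number mapped in the library. Levels are compared between genes only within a library type, since the order of the genes differed between the types. Changes are differences of log2(FPKM + 1), which understate the change of genes near or below 1 FPKM, and were tested with limma over all genes in a table. A gene was called where its Benjamini-Hochberg adjusted p was below 0.05. The test took in genes that reached 1 FPKM in 2 or more libraries: 7 of the 8 genes in total RNA (not Ago4) and 6 in polyA RNA (neither Ago4 nor Ago1).

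FPKM summed to 412115 to 629583 per total RNA library and 539978 to 675241 per polyA library, so no common total had been set, and sequencing depth is unknown. Maternal oocyte markers summed to 2404 to 3108 FPKM in 1-cell and 567 to 1354 FPKM in 2-cell total RNA. The 2-cell markers summed to 4.31 to 17.2 FPKM and 372 to 469 FPKM. In polyA RNA maternal markers summed to 8363 to 9140 FPKM, then 1986 to 5525 FPKM. There 2-cell markers summed to 41.8 to 45.0 FPKM, then 1088 to 1991 FPKM. The libraries thus carried the stage of their labels. The 12 cumulus and granulosa markers summed to 15.97 to 25.5 FPKM in 1-cell and 35.2 to 48.3 FPKM in 2-cell total RNA, mostly from Nr5a2 (11.4 to 16.4 FPKM, then 26.1 to 38.4 FPKM). Of these 12 markers 4 were tested: Nr5a2, Amhr2 (at most 0.0613 FPKM, then 3.01 to 7.19 FPKM) and Tnfaip6 (0, then 0.561 to 4.06 FPKM) rose and Cyp19a1 (4.52 to 8.52 FPKM, then 0.430 to 2.04 FPKM) fell. Among the other 8, Inha and Hsd3b1 were at 0 in all 16 libraries, Amh, Ptx3 and Lhcgr stayed at or below 0.0826 FPKM, and Foxl2, Has2 and Fshr reached at most 1.06, 0.940 and 0.429 FPKM. In polyA RNA the 12 summed to 18.5 to 23.7 FPKM at 1 cell and 26.2 to 94.1 FPKM at 2 cells. Of 4 tested there, 3 rose and 1 fell between the WT stages. Tnfaip6 was at most 0.188 FPKM, then 7.19 to 43.4 FPKM, and Amhr2 was 0, then 2.77 to 19.0 FPKM. Whether other cells had a part in the changes between stages was not tested.

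The targeted RNAs were read in every group. In 1-cell total RNA Dppa2 was at 9.38 and 9.52 FPKM in Dppa2 m-z+ against 32.3 and 32.7 FPKM in m+z+ embryos, and at 2 cells the pairs overlapped (44.8 and 59.2 against 49.7 and 53.0 FPKM). Dppa4 was at 1.13 and 0 FPKM in 1-cell Dppa4 m-z+ against 4.37 and 6.92 FPKM in m+z+ embryos, and overlapped at 2 cells (25.5 and 20.3 against 30.1 and 17.6 FPKM). In polyA RNA Dppa4 was at 0, 0 and 0.149 FPKM in the Dppa4 m-z- libraries. Embryos labelled Dppa2 m-z- still had 155, 130 and 76.5 FPKM of Dppa2. Dppa2 m-z+ embryos held 92.4, 87.4 and 63.3 FPKM of it, and WT 2-cell embryos 123 and 69.6 FPKM. The label Dppa2 m-z- is thus not borne out by RNA level, and the embryos are called by it only as a label. How the alleles were made is not described, so RNA level cannot tell whether working Dppa2 was lost.

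At the 1-cell stage the 8 transcripts held the same order in every total RNA group: Dicer1 highest, then Drosha, Ago3, Tarbp2, Dgcr8, Ago2, Ago1 and Ago4. In each of these 4 groups, no library of one gene overlapped those of its neighbour in the order. At the 2-cell stage Drosha had the highest mean in all 4 groups and Dicer1 the second, and their libraries overlapped only in Dppa2 m-z+. Ago3 followed in each group, then Dgcr8, and Tarbp2, Ago2 and Ago1 changed places among themselves, with overlapping neighbours. In polyA RNA of WT embryos Ago3 had the highest mean at both stages, overlapping with Dicer1 at 1 cell and clear of Drosha, the next gene, at 2 cells.

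**Figure D1:**
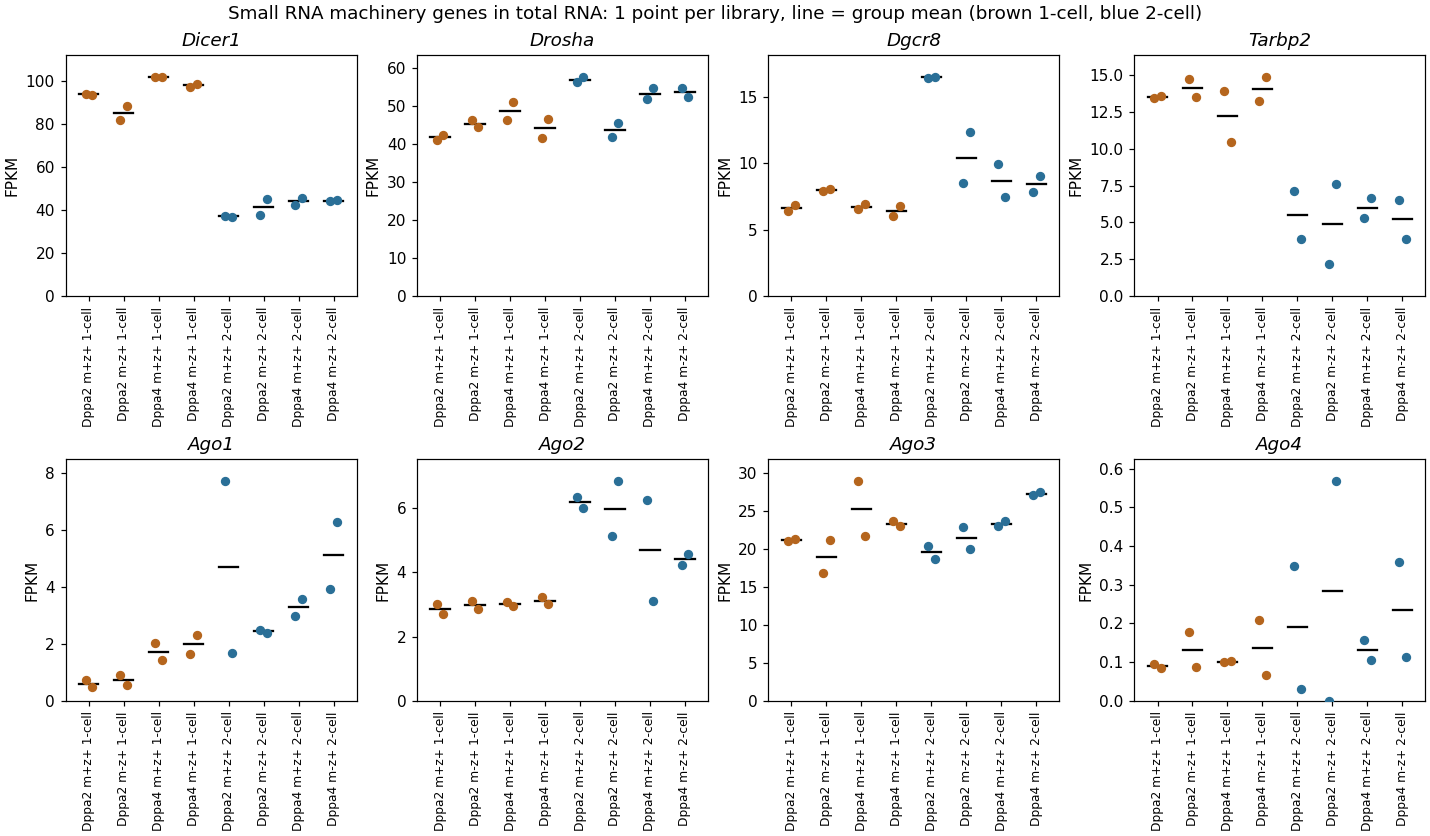
FPKM of each gene in the 16 total RNA libraries (1 point per library, black line for the mean of 2, brown for 1-cell and blue for 2-cell groups; each panel has its own axis from 0). Dicer1 and Tarbp2 are lower in every 2-cell library than in every 1-cell library, Ago3 shows no such step, and Ago4 stays at or below 0.568 FPKM. The stages do not overlap for 44.5% of all genes tested.

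The clearest movement in total RNA, by limma adjusted p, was a fall of both genes of the Dicer step. In WT polyA RNA only Dicer1 was called. Averaged over the 4 total RNA genotypes, 6 of the 7 genes tested passed between the stages: Dicer1 and Tarbp2 fell, and Drosha, Dgcr8, Ago1 and Ago2 rose. This count is near the background, since 78.1% of all genes tested passed (40.4% rose and 37.7% fell). The median change was 0.20 for the 7 genes and 0.04 for all 15068.

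Scaling mattered to the small changes. With every library rescaled to a common FPKM total, the median change of all genes moved from 0.04 to -0.26, and 2 of the 7 genes rose and 3 fell. Relative to the median of all genes, Dicer1 changed by -1.20 as deposited and by -1.27 with a common total, and Tarbp2 by -1.28 and -1.40. The same values were 0.15 and 0.10 for Drosha, 0.50 and 0.49 for Dgcr8, 1.02 and 1.27 for Ago1, and 0.59 and 0.64 for Ago2. Scaling by the median ratio to a mean library moved the median of all genes to 0.11 and left the split at 4 and 2.

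Dicer1 (ENSMUSG00000041415, mm10, chromosome 12, 104687742 to 104751952, reverse strand) stood at 94.1 and 93.5 FPKM in 1-cell Dppa2 m+z+ embryos and at 37.5 and 36.8 FPKM at 2 cells. Dppa2 m-z+ embryos held 81.9 and 88.5 FPKM, then 37.9 and 45.4 FPKM. Every 2-cell library of either arm was below every 1-cell library. The stages did not overlap for 44.5% of all genes tested. The Dppa4 arm gave the same picture. There m+z+ embryos held 101.7 and 101.9 FPKM at 1 cell and 42.5 and 45.7 FPKM at 2 cells, and m-z+ embryos 97.3 and 98.7 FPKM, then 44.1 and 44.7 FPKM. The means were 94.7 ± 6.84 FPKM (SD, n = 8) and 41.8 ± 3.80 FPKM (n = 8). The log2 change was -1.16 (SE 0.06, limma adjusted p = 2.482e-09), 2.24-fold lower on that scale. Dicer1 fell in each genotype taken alone, by 1.02 to 1.31 on the log2 scale. Levels in these bulk libraries are relative to all other RNA: a loss of Dicer1 RNA and a gain of other RNA per embryo cannot be told apart.

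Dicer1 also fell in WT polyA RNA, from 29.0 and 35.1 FPKM at 1 cell to 9.33 and 8.95 FPKM at 2 cells. The log2 change was -1.70 (SE 0.43, limma adjusted p = 0.007468). Among the 6 genes tested it was the only one that passed, against 25.9% of all genes (17.4% rose and 8.42% fell). Without WT 1-cell replicate 2 the change was -1.57 and no longer passed (limma adjusted p = 0.07711). In the 12 mutant 2-cell embryos Dicer1 lay between 6.76 and 13.7 FPKM, below both WT 1-cell embryos.

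Tarbp2 (ENSMUSG00000023051, chromosome 15, 102518192 to 102523676, forward strand) was lower in all 8 2-cell total RNA libraries, at 2.19 to 7.59 FPKM (median 5.92), than in the 8 1-cell libraries, at 10.4 to 14.9 FPKM (median 13.5). The groups did not overlap, as for 44.5% of all genes tested. The 2-cell replicates were far apart: 7.11 and 3.86 FPKM (Dppa2 m+z+), 2.19 and 7.59 FPKM (Dppa2 m-z+), 5.28 and 6.68 FPKM (Dppa4 m+z+), and 6.55 and 3.90 FPKM (Dppa4 m-z+). The log2 change was -1.24 (SE 0.20, limma adjusted p = 7.38e-05).

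PolyA RNA did not show this fall of Tarbp2. WT embryos held 10.3 and 8.47 FPKM at 1 cell and 7.0001 and 10.1 FPKM at 2 cells, a log2 change of -0.13 (SE 0.64, 95% interval -1.47 to 1.21, limma adjusted p = 0.9391). The interval includes the change measured in total RNA. The difference between the library types was not tested, since the tables were made separately. Of the 50-base stretches of Tarbp2 transcripts, 14.3% also occur in transcripts of other genes. Among the 8 genes this was the largest share, with genes that share exonic bases with the gene itself left out.

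The sequences just upstream of the annotated Dicer1 and Tarbp2 starts are shown because these genes fell together in total RNA. They are RefSeq windows of 250 bases (GRCm38.p6) ending at the base before the start, written 5′ to 3′ on the gene's strand. Capitals mark the motif CCAAT and the motif GGGCGG, searched on both strands, so that CCGCCC marks the reverse of the latter. The motif TATAAA was also searched on both strands and is in neither window. No match to one motif overlaps a match to another.
Dicer1, chr12:104751953-104752202, reverse strand: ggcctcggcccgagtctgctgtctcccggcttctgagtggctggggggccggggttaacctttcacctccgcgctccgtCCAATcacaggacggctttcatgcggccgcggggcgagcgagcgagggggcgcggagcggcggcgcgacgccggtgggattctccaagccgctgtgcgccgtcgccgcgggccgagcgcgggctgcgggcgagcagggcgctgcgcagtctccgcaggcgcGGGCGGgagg
Tarbp2, chr15:102517942-102518191, forward strand: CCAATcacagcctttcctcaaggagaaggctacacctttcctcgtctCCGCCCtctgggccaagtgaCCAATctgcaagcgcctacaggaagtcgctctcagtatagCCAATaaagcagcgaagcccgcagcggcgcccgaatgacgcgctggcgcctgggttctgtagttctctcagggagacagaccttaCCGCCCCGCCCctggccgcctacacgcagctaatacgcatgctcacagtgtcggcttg

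Both windows hold CCAAT, found in 33.8% of 32851 such windows, and GGGCGG, found in 32.7%, while TATAAA is in 12.4%. Dicer1 has 1 match to each, and Tarbp2 has 3 to each, 2 of its CCGCCC matches sharing letters. The windows hold 39 and 18 CpG pairs, against a median of 6 over all windows. These matches describe letters and not bound sites, and which starts these embryos used was not tested.

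The Microprocessor genes moved less, and upward in total RNA as deposited when averaged over the 4 genotypes. Drosha (ENSMUSG00000022191, chromosome 15, 12824815 to 12935291, forward strand), the enzyme of the pair, went from 41.2 and 42.5 FPKM to 56.3 and 57.7 FPKM in Dppa2 m+z+ embryos. In Dppa2 m-z+ embryos it stood at 46.3 and 44.6 FPKM, then 41.8 and 45.5. Dppa4 m+z+ embryos went from 46.4 and 51.1 FPKM to 51.8 and 54.7, and Dppa4 m-z+ embryos from 41.6 and 46.7 FPKM to 54.9 and 52.5. The 2-cell Dppa2 m-z+ libraries were thus the only 2-cell libraries within the 1-cell range. Over the 4 genotypes the log2 change was 0.20 (SE 0.06, limma adjusted p = 0.01361). With every library rescaled to a common total it was -0.16 (limma adjusted p = 0.0616), so the direction of Drosha depends on the scaling.

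Dgcr8 (ENSMUSG00000022718, chromosome 16, 18253948 to 18289246, reverse strand), the partner that binds the hairpin, was even at 1 cell, at 6.07 to 8.05 FPKM in the 8 libraries. The 2-cell pairs were 16.5 and 16.5 FPKM (Dppa2 m+z+), 8.54 and 12.3 FPKM (Dppa2 m-z+), 9.96 and 7.44 FPKM (Dppa4 m+z+) and 7.85 and 9.10 FPKM (Dppa4 m-z+). The Dppa2 m+z+ pair was above every other library. The log2 change over the 4 genotypes was 0.55 (SE 0.11, limma adjusted p = 0.0004043), and 0.23 with a common total (limma adjusted p = 0.06784).

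In WT polyA RNA Drosha stood at 10.3 and 12.4 FPKM at 1 cell and 18.4 and 16.7 FPKM at 2 cells, without overlap, as for 66.4% of all genes. The log2 change was 0.59 (SE 0.52, limma adjusted p = 0.4482). Dgcr8 was at 0.947 and 1.4997 FPKM, then 0.954 and 5.20 FPKM, so the higher 2-cell value came from 1 embryo (log2 change 0.66, SE 0.61, limma adjusted p = 0.478). Neither passed.

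The Dgcr8 transcript itself contains a microRNA hairpin, shown because the enzyme that cuts such hairpins is built with the Dgcr8 protein. Mir1306 (RefSeq, GRCm38.p6, reverse strand of chromosome 16) lies with all 79 of its bases in Dgcr8 coding exon. Capitals mark the mature arms in the hairpin and the seed, bases 2 to 8, in each mature RNA.
Mir1306 hairpin, chr16:18284239-18284317: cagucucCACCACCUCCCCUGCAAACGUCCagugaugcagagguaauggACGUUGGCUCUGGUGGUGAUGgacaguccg
mmu-miR-1306-5p: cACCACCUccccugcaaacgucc
mmu-miR-1306-3p: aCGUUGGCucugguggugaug

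The 2 arms have different seeds. The table's own row for Mir1306 held 0.0246 to 0.230 FPKM in total RNA and at most 0.229 FPKM in polyA RNA. Those reads cannot be told apart from reads of the Dgcr8 exon, and neither library type captures mature microRNAs as such. Dgcr8 also shares 825 exonic bases (10.7% of its own) with Trmt2a on the opposite strand. On its own strand it shares 327 (4.25%) with the protein-coding Gm49776, for which no FPKM is given, and 88 with Gm24572, annotated as a microRNA. In the polyA libraries, which do not keep strand, Trmt2a had a median of 0.397 FPKM. A second identifier named Dgcr8 was at 0 in all 32 libraries.

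Among the Argonautes, Ago3 was the main transcript at both stages, while Ago1 and Ago2 rose in total RNA. Ago3 (ENSMUSG00000028842, chromosome 4, 126331704 to 126429556, reverse strand) ranged from 16.8 to 28.9 FPKM at 1 cell (median 21.4) and from 18.6 to 27.5 FPKM at 2 cells (median 22.9). The stages overlapped throughout, and the log2 change was 0.04 (SE 0.09, 95% interval -0.15 to 0.23, limma adjusted p = 0.6529). With a common total it was -0.31 and passed (limma adjusted p = 0.01619).

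Ago2 (ENSMUSG00000036698, chromosome 15, 73095844 to 73184935, reverse strand) was tight at 1 cell, at 2.71 to 3.23 FPKM in the 8 libraries. The 2-cell pairs were 6.36 and 6.01 FPKM (Dppa2 m+z+), 5.14 and 6.84 FPKM (Dppa2 m-z+), 6.27 and 3.10 FPKM (Dppa4 m+z+) and 4.23 and 4.58 FPKM (Dppa4 m-z+). All but 1 of these 2-cell values, Dppa4 m+z+ replicate 2, lay above the 1-cell range. The log2 change was 0.63 (SE 0.13, limma adjusted p = 0.0006441).

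Ago1 (ENSMUSG00000041530, chromosome 4, 126435012 to 126468583, reverse strand) was scarce at 1 cell, at 0.737 and 0.467 FPKM (Dppa2 m+z+), 0.914 and 0.568 FPKM (Dppa2 m-z+), 2.03 and 1.42 FPKM (Dppa4 m+z+) and 1.65 and 2.32 FPKM (Dppa4 m-z+). At 2 cells, in the same order, it held 7.72 and 1.67, 2.49 and 2.40, 2.996 and 3.59, and 3.94 and 6.28 FPKM. Each 2-cell library was above the 1-cell pair of its own genotype, and the 2-cell Dppa2 m+z+ replicates were the farthest apart. The log2 change was 1.07 (SE 0.21, limma adjusted p = 0.0004842), and 0.85 to 1.28 when any 1 library was left out.

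In WT polyA RNA neither Ago2 nor Ago3 passed. Ago2 held 1.74 and 1.68 FPKM at 1 cell and 2.12 and 1.82 FPKM at 2 cells, a log2 change of 0.13 (SE 0.52, limma adjusted p = 0.9167). Ago1 ranged from 0.0237 to 1.13 FPKM over the 16 polyA libraries, passed 1 FPKM in 1 of them and was not tested. Ago3 held 31.9 and 37.4 FPKM, then 37.03 and 53.7 FPKM (log2 change 0.36, SE 0.55, limma adjusted p = 0.6895). Ago2 overlaps Chrac1 on the opposite strand over 219 exonic bases, and Chrac1 had a median of 26.3 FPKM in these unstranded libraries, where reads of the shared bases cannot be told apart.

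Ago4 (ENSMUSG00000042500, chromosome 4, 126489541 to 126533472, reverse strand) was scarce in both library types, at 0 to 0.568 FPKM in total RNA and 0 to 1.13 FPKM in polyA RNA. It passed 1 FPKM in a single library, Dppa2 m-z+ replicate 2 of the polyA set. No test was made of it.

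**Figure D2:**
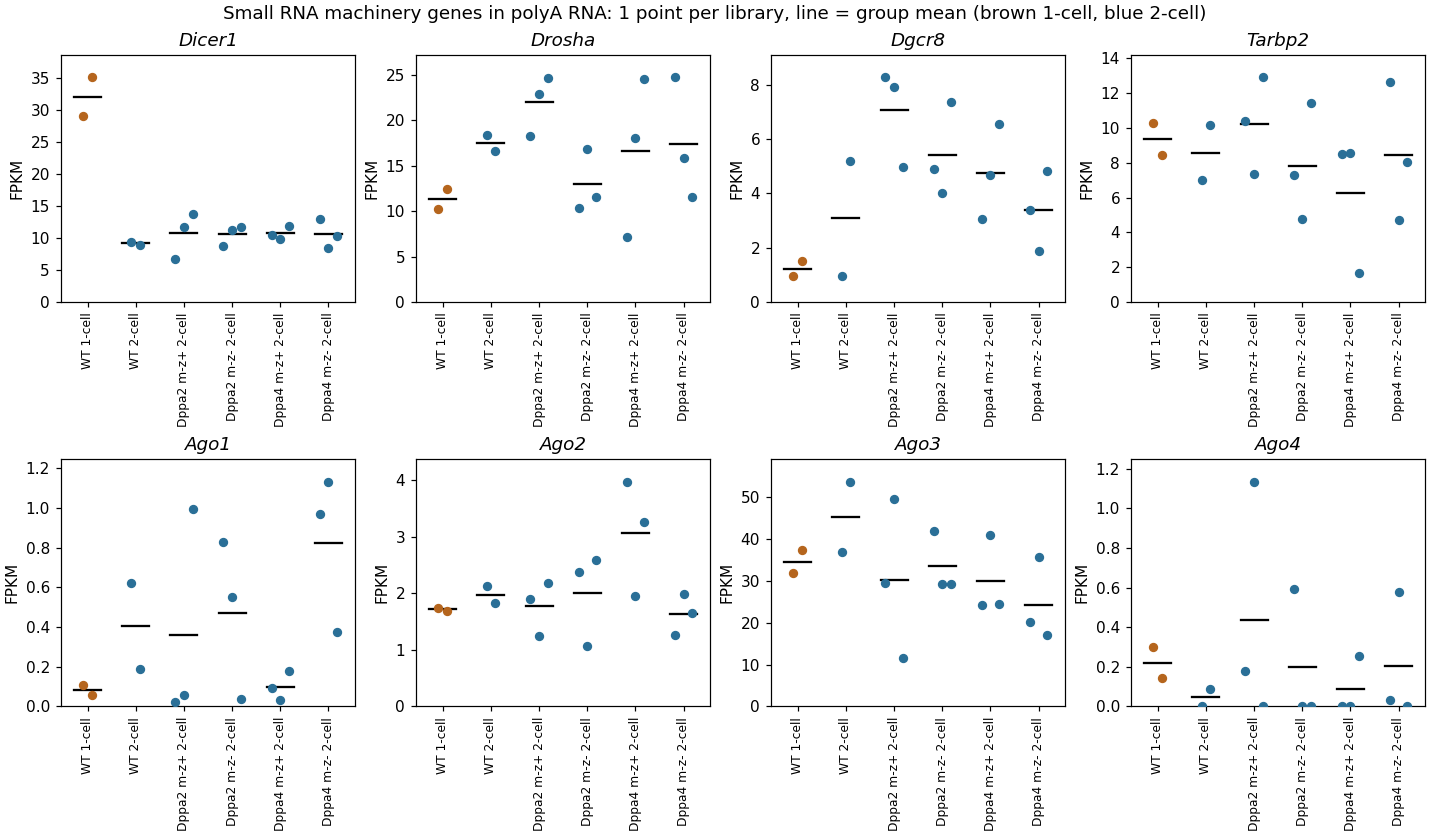
FPKM of each gene in the 16 polyA libraries (1 point per library, black line for the group mean, brown for 1-cell and blue for 2-cell embryos; each panel has its own axis from 0). Dicer1 is at 29.0 and 35.1 FPKM in the WT 1-cell embryos and at or below 13.7 FPKM in all 14 2-cell embryos, while the other genes overlap between most groups.

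The make-up of the Argonaute pool followed from these levels. Ago3 made up a median of 83.7% of summed Argonaute FPKM in 1-cell total RNA (80.0% to 86.7%, n = 8) and 71.2% in 2-cell total RNA (58.5% to 77.6%, n = 8), without overlap between the stages. The median share of Ago2 was 11.3% at 1 cell and 17.6% at 2 cells, and that of Ago1 4.90% and 10.2%. In polyA RNA Ago3 made up 93.7% and 95.2% in the 2 WT 1-cell embryos and a median of 91.8% in the 14 2-cell embryos (78.3% to 96.2%). The shares restate the FPKM values above and were not tested.

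**Figure D3:**
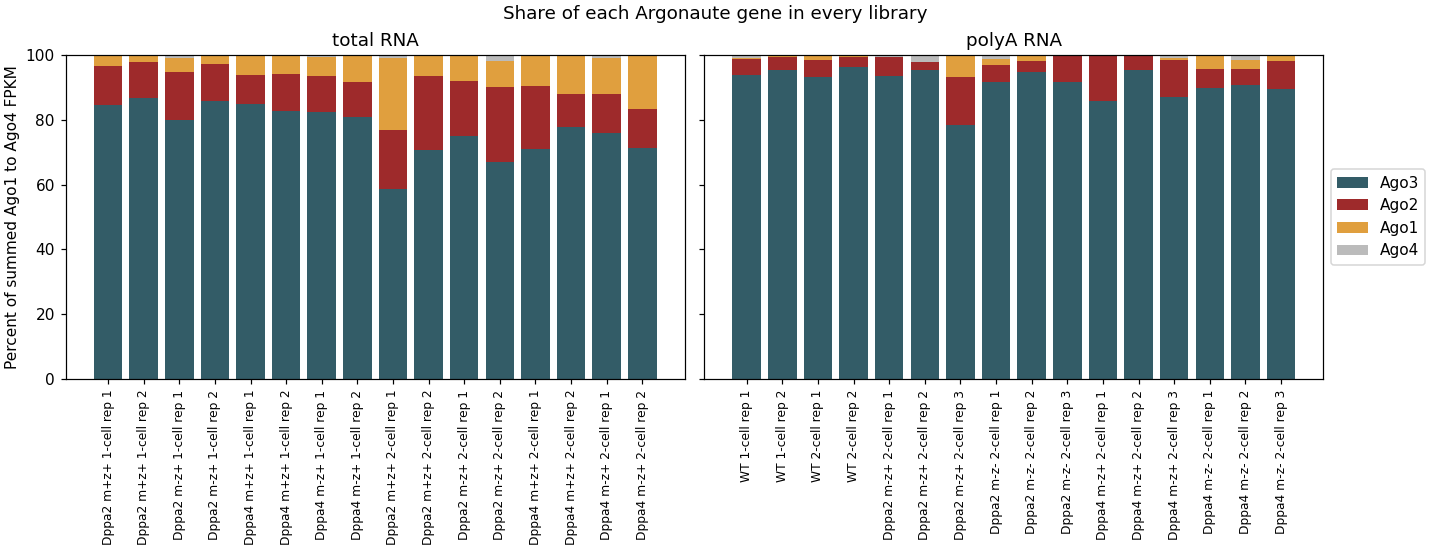
Share of Ago1, Ago2, Ago3 and Ago4 in their summed FPKM, in percent, for each of the 32 libraries (1 bar per library, total RNA on the left and polyA RNA on the right). Ago3 forms the largest part of every bar, from 58.5% to 96.2%, and its part is smaller in 2-cell than in 1-cell total RNA.

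Ago3, Ago1 and Ago4 lie side by side on chromosome 4, in that order and on the same strand, with 5455 bases between Ago3 and Ago1 and 20957 between Ago1 and Ago4. Neighbours in this cluster thus had very different RNA levels, and the upstream windows of its most and least abundant genes in total RNA are shown for that reason. They follow the same conventions as the Dicer1 window, and each holds 14 bases that GENCODE counts as exon.
Ago3, chr4:126429543-126429792, reverse strand: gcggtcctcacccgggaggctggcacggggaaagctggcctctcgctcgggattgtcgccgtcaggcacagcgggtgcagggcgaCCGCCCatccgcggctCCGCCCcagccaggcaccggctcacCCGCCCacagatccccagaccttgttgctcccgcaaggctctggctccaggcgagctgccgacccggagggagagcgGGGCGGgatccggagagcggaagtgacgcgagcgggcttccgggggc
Ago4, chr4:126533459-126533708, reverse strand: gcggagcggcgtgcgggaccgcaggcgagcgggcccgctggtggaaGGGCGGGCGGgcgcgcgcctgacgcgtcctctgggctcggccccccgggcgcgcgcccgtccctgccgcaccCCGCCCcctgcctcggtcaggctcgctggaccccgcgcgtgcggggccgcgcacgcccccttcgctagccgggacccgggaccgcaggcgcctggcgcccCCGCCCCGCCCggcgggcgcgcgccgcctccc

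Neither window holds CCAAT or TATAAA, and both hold GGGCGG, with 4 matches for Ago3 and 5 for Ago4. Both are rich in CpG pairs, with 27 and 46. Ago4, the lowest of the 8 in every total RNA group, had the most CpG pairs of the 7 genes with an entry in the promoter table (Ago2 has none).

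Taken one genotype at a time, the changes between the stages that passed numbered 6, 3, 1 and 2. In Dppa2 m+z+ embryos 4 genes rose (Drosha, Dgcr8, Ago1 and Ago2) and Dicer1 and Tarbp2 fell, against 61.6% of all genes called (31.7% rose and 29.9% fell). In Dppa2 m-z+ embryos Ago2 rose and Dicer1 and Tarbp2 fell (57.3% of all genes, 28.8% upward and 28.4% downward). In Dppa4 m+z+ embryos only Dicer1 passed (49.1%, 24.9% upward and 24.2% downward), and in Dppa4 m-z+ embryos Dicer1 and Tarbp2 fell (50.3%, 25.3% upward and 25% downward). Tarbp2 changed by -1.21, -1.53, -0.91 and -1.30 in these groups, the value for Dppa4 m+z+ not passing (limma adjusted p = 0.07265). Without Dppa2 m+z+ 2-cell replicate 1, Ago1 changed by 0.74 in that genotype instead of 1.60 and did not pass (limma adjusted p = 0.06292).

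Leaving out a library ended several of these calls, though none of Dicer1 in the 4 genotypes. In Dppa2 m+z+ embryos Tarbp2 did not pass without 1-cell replicate 1, 1-cell replicate 2 or 2-cell replicate 2 (limma adjusted p = 0.06412, 0.06737 and 0.1411). Drosha did not without 1-cell replicate 1 (0.05586), nor Ago2 without 1-cell replicate 2 (0.05677). In Dppa2 m-z+ embryos Ago2 did not pass without 1-cell replicate 1, 1-cell replicate 2 or 2-cell replicate 2 (0.05671, 0.08472 and 0.1113). Tarbp2 changed by -0.81 there without 2-cell replicate 1 (0.06385). In Dppa4 m-z+ embryos Tarbp2 did not pass without 1-cell replicate 2 or 2-cell replicate 2 (0.07795 and 0.1231). In Dppa4 m+z+ embryos Ago2 rose by 0.86 without 2-cell replicate 2 (0.01419) instead of 0.45.

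**Figure D4:**
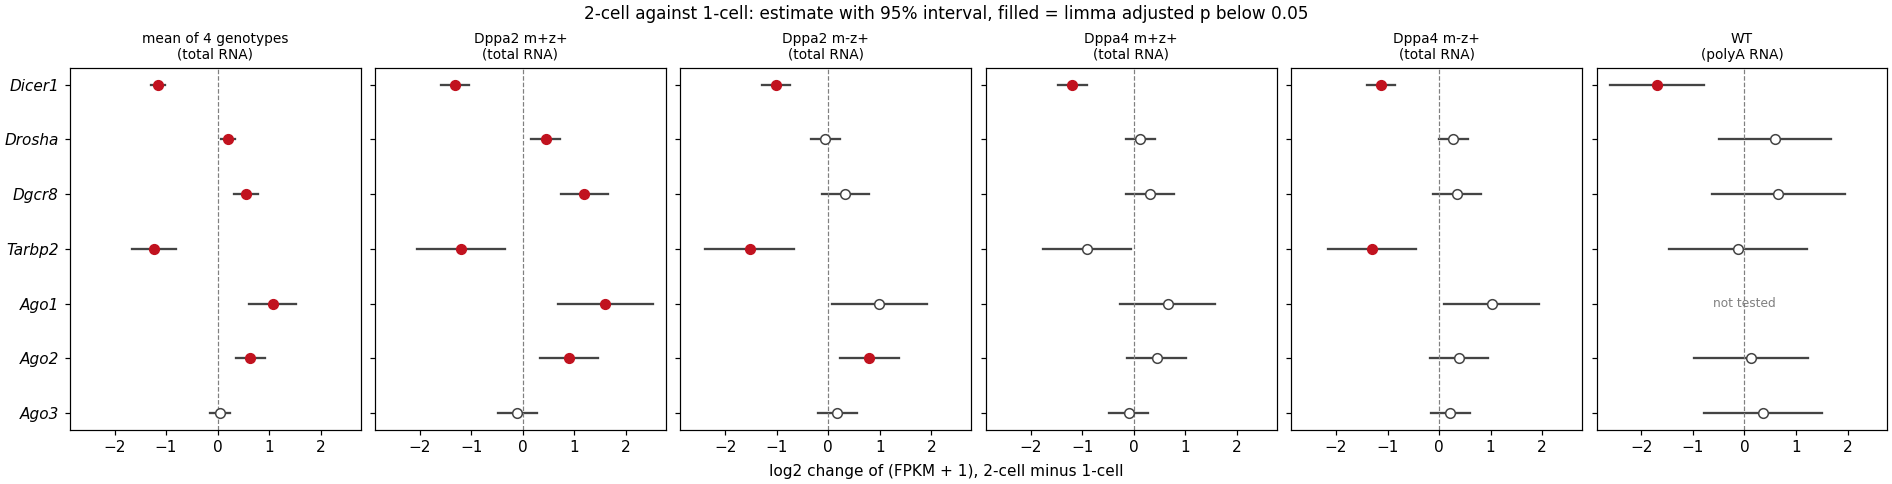
Log2 change of (FPKM + 1) from 1-cell to 2-cell embryos for 7 genes (rows), as the mean of 4 genotypes, in each genotype and in WT polyA RNA (columns); points are limma estimates, lines 95% intervals, and filled points passed an adjusted p of 0.05. Dicer1 is filled and left of 0 in all 6 columns, and Tarbp2 is left of 0 in all 6 but filled in 4.

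The study asked what loss of Dppa2 or Dppa4 does to the embryo's transcripts. None of the 7 genes tested in total RNA differed between m-z+ and m+z+ embryos by limma's adjusted p. The share of all genes that did was 0.0398% for Dppa2 at 1 cell, 0.186% for Dppa2 at 2 cells, 0.00664% for Dppa4 at 1 cell and 0% for Dppa4 at 2 cells. At an unadjusted limma p below 0.05 there were 0, 2, 0 and 0 of the 7 genes, against 459, 1932, 192 and 402 of all 15068. Limma without its trend and robust options also called 0 in each.

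The 2 genes were those of the Microprocessor, Drosha and Dgcr8, in 2-cell Dppa2 embryos. With the m-z+ pair at 8.54 and 12.3 FPKM and the m+z+ pair at 16.5 and 16.5 FPKM, Dgcr8 differed by -0.63 (SE 0.21, limma adjusted p = 0.2316). It was -0.39 without m-z+ replicate 1 and -0.87 without m-z+ replicate 2 (limma adjusted p = 0.5564 and 0.06187). Drosha was at 41.8 and 45.5 FPKM against 56.3 and 57.7 FPKM (-0.38, SE 0.13, limma adjusted p = 0.2399). Neither gene overlapped between the groups, as for 31.4% of all genes tested, and neither passed. Maternal oocyte markers also separated these groups, summing to 868 and 881 FPKM in m-z+ and 567 and 652 FPKM in m+z+ embryos, with 10 of 12 higher and 1 called. Their part in the differences was not tested. The same contrast in the Dppa4 arm was -0.03 for Dgcr8 (95% interval -0.49 to 0.44) and 0.01 for Drosha (-0.27 to 0.29).

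For the Dicer step the estimates were small and their intervals narrow for Dicer1. The m-z+ against m+z+ difference of Dicer1 was -0.14 (95% interval -0.41 to 0.14) at 1 cell and 0.15 (-0.12 to 0.43) at 2 cells in the Dppa2 arm. In the Dppa4 arm it was -0.05 (-0.33 to 0.22) and 0.01 (-0.26 to 0.29). These intervals lie within 0.43 of 0 on the log2 scale. For Tarbp2 they reach from -1.12 to 0.59 in 2-cell Dppa2 embryos, so changes of that size could not be seen with 2 libraries a group. For Ago1 in the same contrast the interval was -1.41 to 0.44, for Ago2 -0.62 to 0.52 and for Ago3 -0.25 to 0.50.

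The change between stages was also compared directly between m-z+ and m+z+ embryos. No gene of the 7 passed in either arm, with 0% of all genes called for Dppa2 and 0.00664% for Dppa4. At an unadjusted p below 0.05 there were 2 and 0 of the 7, against 1299 and 270 of all 15068 genes. The 2 were again Dgcr8 (-0.86, SE 0.30, limma adjusted p = 0.4503) and Drosha (-0.49, SE 0.18, limma adjusted p = 0.4644) in the Dppa2 arm.

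In polyA RNA m-z- embryos were compared with m-z+ embryos of the same arm. For both Dppa2 and Dppa4, 0 of the 6 genes passed (0.0054% and 0.0162% of all genes). At an unadjusted p below 0.05 it was also 0, against 1415 and 1296 of all 18506 genes. Drosha held 10.4, 16.9 and 11.6 FPKM in the embryos labelled Dppa2 m-z- and 18.3, 23.0 and 24.7 FPKM in Dppa2 m-z+ embryos. These did not overlap, as for 10.4% of all genes, and the log2 difference was -0.74 (SE 0.42, limma adjusted p = 0.7271). Dicer1 differed by 0.02 (95% interval -0.72 to 0.77) in the Dppa2 arm and by -0.04 (-0.78 to 0.71) in the Dppa4 arm. The Dppa4 m-z- embryos, whose Dppa4 RNA was at or near 0, held 12.9, 8.46 and 10.3 FPKM of Dicer1 against 10.5, 9.82 and 11.9 FPKM in Dppa4 m-z+ embryos.

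Against WT 2-cell embryos, 0 of the 6 genes passed in any of the 4 mutant groups. The shares of all genes called were 0.113% in Dppa2 m-z+, 0.0973% in embryos labelled Dppa2 m-z-, 0% in Dppa4 m-z+ and 0.0648% in Dppa4 m-z- embryos. These comparisons share the same 2 WT libraries, and the Dppa2 groups also differ from WT in background. At an unadjusted p below 0.05 only Dgcr8 in Dppa2 m-z+ embryos was named, where 1435 of all 18506 genes were below it. Dgcr8 was at 8.27, 7.93 and 4.96 FPKM against 0.954 and 5.20 FPKM. Its log2 difference was 1.18 (SE 0.56, limma adjusted p = 0.6432), and moved to 0.35 without WT replicate 1 and 2.02 without WT replicate 2 (limma adjusted p = 0.9868 and 0.4499). Ago3 had its lowest group mean in Dppa4 m-z- embryos, at 20.1, 35.8 and 17.0 FPKM against 37.03 and 53.7 FPKM in WT (-0.92, SE 0.50, limma adjusted p = 0.5376).

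**Figure D5:**
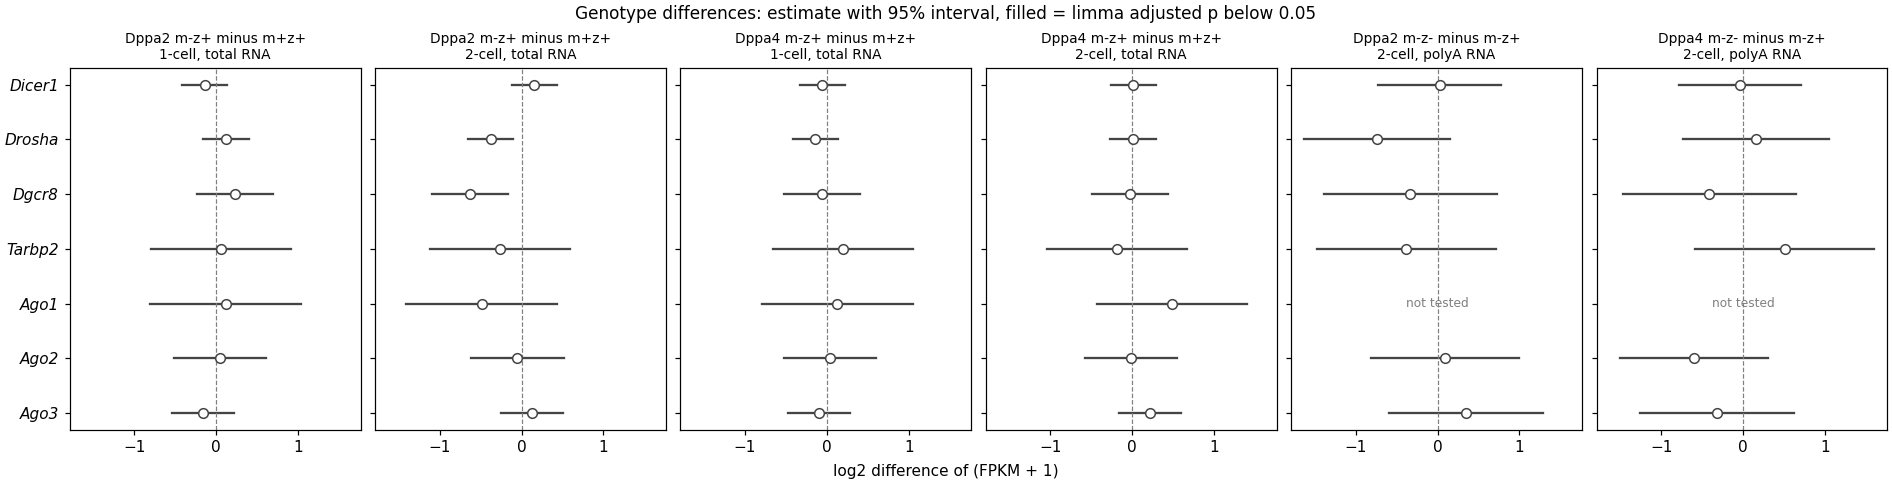
Log2 difference of (FPKM + 1) between genotypes for 7 genes (rows) in 6 contrasts (columns); points are limma estimates and lines 95% intervals, and a filled point would mark an adjusted p below 0.05. No point is filled, and only the lines of Drosha and Dgcr8 in 2-cell Dppa2 embryos leave 0.

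Controls of the Dppa2 and Dppa4 arms were set against each other as a measure of how far groups with intact alleles differ. At 1 cell 0 of the 7 genes passed, against 1.01% of all genes, and 0 at an unadjusted p below 0.05, against 1167 of all 15068. At 2 cells 1 passed, against 9.13% of all genes (4.5% higher in the Dppa2 arm): Dgcr8 was higher in the Dppa2 arm, at 16.5 and 16.5 FPKM against 9.96 and 7.44 FPKM, by 0.86 (SE 0.21, limma adjusted p = 0.02755). It did not pass with a common total (adjusted p = 0.06033) or in a fit of these 4 libraries alone (0.3579). Without Dppa2 m+z+ replicate 1, Dppa2 m+z+ replicate 2 or Dppa4 m+z+ replicate 2 the adjusted p was 0.07291, 0.06343 and 0.2137. Without Dppa4 m+z+ replicate 1, Ago2 passed as well, at 0.81 (adjusted p = 0.04613). Maternal oocyte markers moved with this contrast too, summing to 567 and 652 FPKM in the Dppa2 arm against 998 and 1354 FPKM in the Dppa4 arm, with 6 of 12 called lower (median -0.81). Their part in the Dgcr8 difference was not tested, and background strain and arm cannot be told apart here. The difference in stage change between the arms was 0.88 for Dgcr8 and did not pass (limma adjusted p = 0.1949, 0.139% of all genes called).

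Genes that work with this machinery moved in both directions between the stages. Of 20 partners of microRNA maturation, 19 were tested in total RNA, where 6 rose and 8 fell, with a median change of -0.19 (all genes 0.04). As 78.1% of all genes were called (40.4% rose and 37.7% fell), 14 of 19 is near the background. Xpo5, which exports the hairpins Drosha makes, fell from 13.4 ± 1.16 to 3.21 ± 0.488 FPKM (SD, n = 8 each). Tsnax, part of a nuclease complex that aids loading of small interfering RNAs, fell by 2.05 on the log2 scale. The largest rises were those of Ncbp1, a subunit of the nuclear cap-binding complex (4.63), the RNA helicase Dhx9 (3.35) and Zcchc11, a uridyltransferase of microRNA precursors (3.14). Xpo5 did not pass in WT polyA RNA, at 2.41 FPKM and then 4.93 FPKM (limma adjusted p = 0.3769). Xpo5 was chosen after its values were seen, and the others by size of change.

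Of the 20 partners 4 rose and 2 fell in WT polyA RNA, where 17.4% of all genes rose and 8.42% fell, with a median of 0.11 (all genes 0.23). Ncbp1 went from 0.0992 to 37.7 FPKM and rose by 5.13 on the log2 scale, and Dhx9 by 2.83. Eri1, an exonuclease of small interfering RNAs, was the one partner called against WT in 3 mutant groups. There 0.113%, 0.0973% and 0.0648% of all genes were called. In Dppa4 m-z+ embryos no partner was called (0% of all genes). It averaged 26.6 ± 6.27 FPKM in Dppa2 m-z+, 25.6 ± 2.90 in embryos labelled Dppa2 m-z-, and 20.5 ± 4.81 in Dppa4 m-z- embryos (SD, n = 3 each), against 2.50 ± 3.27 FPKM in the 2 WT embryos (log2 differences 3.37, 3.34 and 3.01, limma adjusted p = 0.01224, 0.0137 and 0.0325). In WT embryos Eri1 had fallen from 12.6 ± 1.89 FPKM at 1 cell (n = 2, limma adjusted p = 0.004652). Eri1 was named after its values were seen. The 3 contrasts share the 2 WT libraries, and the Dppa2 groups also differ from WT in background.

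Of 20 silencing effectors, which act with or after Argonaute, 9 rose and 5 fell in total RNA, with a median of 0.09. This too is near the 78.1% of all genes called (40.4% rose and 37.7% fell). The helicase Ddx20 rose by 2.87, the Hsp90 cochaperone Fkbp4 by 2.35 and the RNA-binding protein Fmr1 by 1.84 on the log2 scale. Hsp90aa1, a chaperone of Argonaute loading, fell from 1057 to 171 FPKM, a log2 change of -2.56. WT polyA RNA had 5 that rose and 2 that fell (17.4% and 8.42% of all genes), with Fkbp4 at 4.20 and Hsp90aa1 at -3.48. Gigyf2, a translational repressor, fell by 1.74 in total RNA and rose by 2.21 in polyA RNA, and was named after this was seen.

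The piRNA pathway, a separate germline system that does not use Dicer, had 21 of 24 listed genes tested in total RNA. There 5 rose and 13 fell, with a median of -0.73, against 40.4% and 37.7% of all genes and a median of 0.04. The largest falls were those of Tdrd12 (-4.05), Tdrd5 (-2.65), Asz1 (-2.48) and Rnf17 (-2.48), tudor or mitochondrial scaffold proteins of piRNA production. The 5 that rose were Piwil2, Pld6, Mov10l1, Pnldc1 and Tex15, at 0.74 to 1.81, named after their values were seen. In WT polyA RNA 4 rose and 4 fell (17.4% and 8.42% of all genes), with Asz1 at -4.95 and Tdrd12 at -3.85.

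With a common total the split in total RNA was 5 and 12 for the maturation partners, 6 and 10 for the silencing effectors, 4 and 15 for the piRNA genes, and 41.6% rather than 51.7% of all genes called had risen. In polyA RNA the split under median-ratio scaling was 3 and 3, 4 and 3, and 3 and 6, and 54.4% rather than 67.4% of all genes called had risen. No gene of the 3 lists passed between m-z+ and m+z+ or between m-z- and m-z+ embryos in limma. Between the 2-cell controls of the arms, 2 of 20 silencing effectors passed as higher in the Dppa2 arm and 1 as lower. Of 21 piRNA genes 2 passed as higher and 1 as lower, and of 19 maturation partners 0 passed, against 9.13% of all genes. Background strain and arm cannot be told apart there.

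For each member tested in both tables the 2 genes most like it were found by the smaller of its correlations over the 16 total RNA and the 16 polyA libraries, among 11680 genes. Dicer1 was most like Dnmt1, the maintenance DNA methyltransferase, at r = 0.99 and 0.95. Within stages r was 0.65 over the 8 1-cell and 0.66 over the 8 2-cell total RNA libraries, and 0.69 over the 14 2-cell polyA libraries. For the others the closest genes were Rrp7a for Dgcr8 (smaller r 0.85), Xdh for Tarbp2 (0.78), Ptk2 for Drosha (0.72), Synm for Ago2 (0.65) and Obox4-ps3 for Ago3 (0.53). For Tarbp2 and Xdh r was -0.03 and 0.06 within the stages of total RNA, and for Ago2 and Synm 0.26 and -0.01. The points share stages, libraries and scaling, and the values describe these libraries only.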

How the data were processed

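RNA levels came from 16 total RNA libraries (stranded SMARTer kit) and 16 polyA libraries (SMARTer Ultra Low Input and Nextera XT, which keep no strand), per the labels' protocols. The deposited values are FPKM, which the authors made by aligning reads to mm10 with HISAT2 2.1.0 and quantifying genes with StringTie 1.3.3b, per the submitters' processing notes. Which annotation and strand setting they used is not given in the sources used here. Depth cannot be read from FPKM.

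From these, log2(FPKM + 1) was computed, and a gene was kept if 2 or more libraries reached 1 FPKM (15068 and 18506 genes). Group means were fitted to each table with limma 3.58.1, using its trend and robust options (statmod 1.5.0, R 4.3.3), so that groups of 2 borrow their spread from all 16 libraries. Tests were two-sided in 21 contrasts, with Benjamini-Hochberg adjustment over all genes of a contrast. The code was tested on simulated data. Errors of changes are limma standard errors, and those of levels are standard deviations.

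The 8 genes and the lists were chosen with earlier results of these data known. Of 108 symbols in the lists 107 were found. All 8 genes were named, and of each pathway list up to 4 genes with the largest called change in total RNA and up to 2 in WT polyA RNA. The alternatives were a pseudocount of 0.1, no filter, a common FPKM total, median-ratio scaling, limma without trend and robust options, a replicate block, the compared libraries alone, and leaving out each library. Positions are from GENCODE M21 (mm10), which held 98.0% of the identifiers.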

Additional observations from a re-analysis of the deposited data

How the results depend on the processing

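Over the 22 alternatives of the change between stages averaged over 4 genotypes, 5 or 6 genes passed, and always 6 when 1 of the 16 libraries was left out. Dicer1, Tarbp2, Ago1 and Ago2 passed in all 22. With a common FPKM total Ago3 was at -0.31 and Drosha at -0.16 over the 4 genotypes, and Drosha at -0.018 in Dppa2 m+z+ embryos (limma adjusted p = 0.01619, 0.0616 and 0.9249), the reverse of their direction as deposited.

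Counts of genes called moved as follows. In Dppa4 m+z+ embryos 1 became 2 with a common total, with the compared libraries alone, and without Dppa4 m+z+ 2-cell replicate 2 (1 to 2 over the libraries left out). In Dppa4 m-z+ embryos 2 became 4 with median-ratio scaling and 1 without 1-cell replicate 2 or 2-cell replicate 2 (1 to 2). In Dppa2 m+z+ embryos 6 became 4 to 5 and in Dppa2 m-z+ embryos 3 became 2 when a library was left out. With a common total or the compared libraries alone the former was 5. The latter was 4 with median-ratio scaling or a pseudocount of 0.1, where Ago1 passed as well, and 2 with a common total or the compared libraries alone. In WT polyA RNA the count was 0 to 1, and 0 only without 1-cell replicate 2. Between the 2-cell controls of the arms, 1 became 0 with a common total or with the compared libraries alone, and 0 to 2 over the libraries left out. Where this left 1 library in a group, it was taken to vary like the others. The cause of these moves was not tested.

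Of 1749 single values under alternatives, 260 kept their call, 24 lost it, 11 gained it and 3 reversed, while 1451 were called neither way, 90 of them with another sign. In the fit with the replicate number as a block, 6 genes passed over the 4 genotypes, and no call changed in any contrast. The numbers were not taken as pairs, since libraries of the same number deviated together at r between -0.14 and 0.14 in total RNA and between -0.18 and 0.12 in polyA RNA. Genotype contrasts kept 0 genes called under every alternative. Without read counts, the part of the spread that depth sets at levels near 1 FPKM, as for Ago1 and Ago4, cannot be given.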
